A study of Mus musculus with 24 samples.

Results

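The metabolic nuclear receptors described here are 10 transcription factors that set the use of fat, sterols, bile acids and foreign compounds in liver: Ppara, Pparg, Nr1h3, Nr1h4, Nr1i2, Nr1i3, Hnf4a, Nr5a2, Rxra and Esrra. They were picked by name, as the genes of the deposited expression table whose Entrez identifiers belong to these mouse symbols, and all 10 were found among its 18171 genes. The naming rule uses no measured value, although the list was drawn up with earlier results of these data known.

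Nuclear receptors are DNA-binding proteins whose activity is tuned by small fat-soluble molecules, such as fatty acids, oxysterols, bile acids or drugs. Rxra is the shared partner: Ppara, Pparg, Nr1h3 (liver X receptor alpha), Nr1h4 (the bile acid receptor FXR), Nr1i2 (the pregnane X receptor) and Nr1i3 (the constitutive androstane receptor) all bind DNA paired with it, at repeats of a core motif close to AGGTCA. Hnf4a pairs with itself and keeps hepatocyte genes active, Nr5a2 (liver receptor homolog) binds alone and acts on bile acid and sterol genes, and Esrra is an orphan receptor that acts on genes of mitochondrial respiration.

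RNA sequencing of livers of C57BL/6 mice was compared between 2 genotypes: mice that overexpressed the form labelled L2 delta13, written L2d13 here, and wild-type (WT) mice, with 12 libraries each. The sample names of both genotypes carry a digit 2 or 4 that the labels leave unexplained, so that there were 4 groups of 6 libraries, named L2d13 set 2, WT set 2, L2d13 set 4 and WT set 4. The labels give neither age, sex and treatment nor the promoter and cell type in which L2d13 was expressed, and they do not say that libraries came from separate animals; the p-values therefore measure the spread between these libraries, which may be technical. L2 delta13 is a name in use for a splice form of Loxl2, although the labels do not spell it out, and Loxl2 was at 1.501 ± 0.384 FPKM in L2d13 and 0.680 ± 0.254 FPKM in WT livers (SD, n = 12 each), with the near-identical copy Gm21451, which can take up its reads, at 172 ± 69.3 in L2d13 and 0.240 ± 0.339 in WT.

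Values are FPKM, fragments per kilobase of transcript scaled to the mapped fragments of a library, so that levels can be compared between genes but the depth of a library is unknown. The libraries correlated with each other at 0.909 to 0.992 on the log2 scale. L2d13 replicate 3 of set 2 and WT replicate 6 of set 2 stood apart, with median correlations with the others of 0.934 and 0.925 against 0.952 to 0.980 for the other 22. In 7 libraries 1 fragment was worth more FPKM than in the other 17 (1.03 to 1.30 against 0.963 to 1.016, relative to the median library): these were 1 L2d13 library in each set, 1 WT library of set 2 and 4 WT libraries of set 4. Summed FPKM of 7 hepatocyte markers was 30850 to 58290 in L2d13 and 51860 to 60420 in WT livers, with the lowest value in L2d13 replicate 3 of set 2. Of 7 fat cell markers, Adipoq, Plin1 and Retn did not exceed 0.09, 0.03 and 0.21 FPKM in any library, while Fabp4 (6.50 to 60.96), Lipe (3.21 to 7.56), Cfd (0.12 to 25.48) and Adrb3 (0.83 to 23.61) were detected in all. Fabp4 and Lipe were higher and Adrb3 was lower in L2d13 than in WT livers over both sets, and the summed FPKM of the 7 was 17.4 to 78.5 in L2d13 and 16.1 to 50.6 in WT livers.

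The 5 receptors that differed between the genotypes are introduced by the stretch of 250 bases before their annotated starts, because these windows differ widely in base composition and in their share of the letters that the family reads. The windows come from RefSeq on GRCm38.p6, which held 16 starts of the 10 receptors. Each is written 5′ to 3′ in the direction of the gene. Capitals mark the core motif AGGTCA (or TGACCT, the same letters on the other strand) and the GC box GGGCGG (or CCGCCC). Nr1i2 lies on chr16:38294825-38295074 (minus strand), Nr1h3 on chr2:91195036-91195285 (minus), Nr5a2 on chr1:136960449-136960698 (minus, the more upstream of 2 starts), Rxra on chr2:27676951-27677200 and chr2:27709042-27709291 (both plus) and Esrra on chr19:6921809-6922058 (minus).
Nr1i2: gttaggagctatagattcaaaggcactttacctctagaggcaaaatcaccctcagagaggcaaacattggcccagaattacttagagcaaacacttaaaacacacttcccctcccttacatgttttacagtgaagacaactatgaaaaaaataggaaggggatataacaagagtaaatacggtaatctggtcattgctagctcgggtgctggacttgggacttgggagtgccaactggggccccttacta
Nr1h3: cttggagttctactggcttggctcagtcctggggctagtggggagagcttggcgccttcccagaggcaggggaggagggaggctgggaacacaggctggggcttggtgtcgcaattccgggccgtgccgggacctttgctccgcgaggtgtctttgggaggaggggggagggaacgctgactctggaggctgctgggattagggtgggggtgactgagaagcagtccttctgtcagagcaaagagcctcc
Nr5a2: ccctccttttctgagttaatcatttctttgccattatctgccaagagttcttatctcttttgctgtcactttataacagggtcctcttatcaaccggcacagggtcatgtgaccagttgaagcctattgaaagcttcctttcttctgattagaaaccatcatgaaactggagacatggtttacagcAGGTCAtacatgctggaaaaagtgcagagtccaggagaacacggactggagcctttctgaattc
Rxra, first start: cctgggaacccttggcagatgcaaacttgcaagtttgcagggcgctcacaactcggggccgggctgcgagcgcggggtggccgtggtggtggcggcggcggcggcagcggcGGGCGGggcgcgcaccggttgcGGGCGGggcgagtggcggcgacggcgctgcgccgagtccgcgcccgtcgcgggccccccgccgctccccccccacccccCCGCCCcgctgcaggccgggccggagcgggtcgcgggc
Rxra, second start: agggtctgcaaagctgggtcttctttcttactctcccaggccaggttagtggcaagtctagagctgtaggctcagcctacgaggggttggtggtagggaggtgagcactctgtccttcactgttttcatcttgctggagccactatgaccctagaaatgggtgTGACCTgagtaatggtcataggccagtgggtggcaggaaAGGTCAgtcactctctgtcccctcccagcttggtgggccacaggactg
Esrra: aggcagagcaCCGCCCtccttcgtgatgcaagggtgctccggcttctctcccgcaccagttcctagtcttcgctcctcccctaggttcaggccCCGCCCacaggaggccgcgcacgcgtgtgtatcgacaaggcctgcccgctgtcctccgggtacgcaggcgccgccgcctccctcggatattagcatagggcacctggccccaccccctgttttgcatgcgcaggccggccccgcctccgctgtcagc

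The Nr1i2 window had a GC content of 44.0% and neither motif. The first Rxra window had a GC content of 81.2% and 3 GC boxes, and the Esrra window 68.4% and 2 GC boxes, against a median GC content of 52.4% over all 32851 windows of the same length. The second Rxra window held the core motif on each strand, starting 87 and 48 bases before the start of transcription, and the printed Nr5a2 window held it once, 64 bases before. The window of the other Nr5a2 start, not printed, held neither motif. Nr1h3 also has 2 starts, of which the more downstream is printed, and neither of its windows held a motif. The core motif was found in 5 of the 16 receptor windows (2 of Pparg, 1 each of Nr1h4, Nr5a2 and Rxra), and in 14.0% of all windows. The GC box was found in 6 of the 16, and in 32.7% of all windows. The core motif repeated in the same direction after 1 base of any kind (0.0335% of all windows) or after 4 bases of any kind (0.0152%), and the core motif with TCA directly before it (0.387%), were in none of the 16. Both strands were searched, the core motif is also contained in the 3 longer ones, and no match says only that these letters are not in these windows.

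All 10 receptors were expressed in every library. Hnf4a and Nr1i3 were the most abundant, at a mean FPKM of 142 ± 22.2 and 129 ± 72.8 in L2d13 livers and 173 ± 34.0 and 154 ± 47.0 in WT livers (SD, n = 12 each). Pparg was the least abundant, at 3.81 ± 1.21 in L2d13 and 4.03 ± 0.957 in WT livers. In the L2d13 livers the order by mean FPKM was Hnf4a, Nr1i3, Rxra, Nr1h4, Nr1h3, Ppara, Nr1i2, Esrra, Nr5a2 and Pparg, and in the WT livers Hnf4a, Nr1i3, Nr1h4, Rxra, Nr1i2, Nr1h3, Ppara, Esrra, Nr5a2 and Pparg. Rxra thus stood higher and Nr1i2 lower in the order of the L2d13 livers than in that of the WT livers. Some neighbours in these orders were not separated beyond their spread: Ppara exceeded Nr1i2 in only 7 of 12 L2d13 libraries, and Nr1h4 exceeded Rxra in only 7 of 12 WT libraries. Hnf4a exceeded Nr1i3 in 11 of 12 L2d13 and 8 of 12 WT libraries. The lower end was well separated, with Esrra above Nr5a2 and Nr5a2 above Pparg in all 24 libraries.

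**Figure D1:**
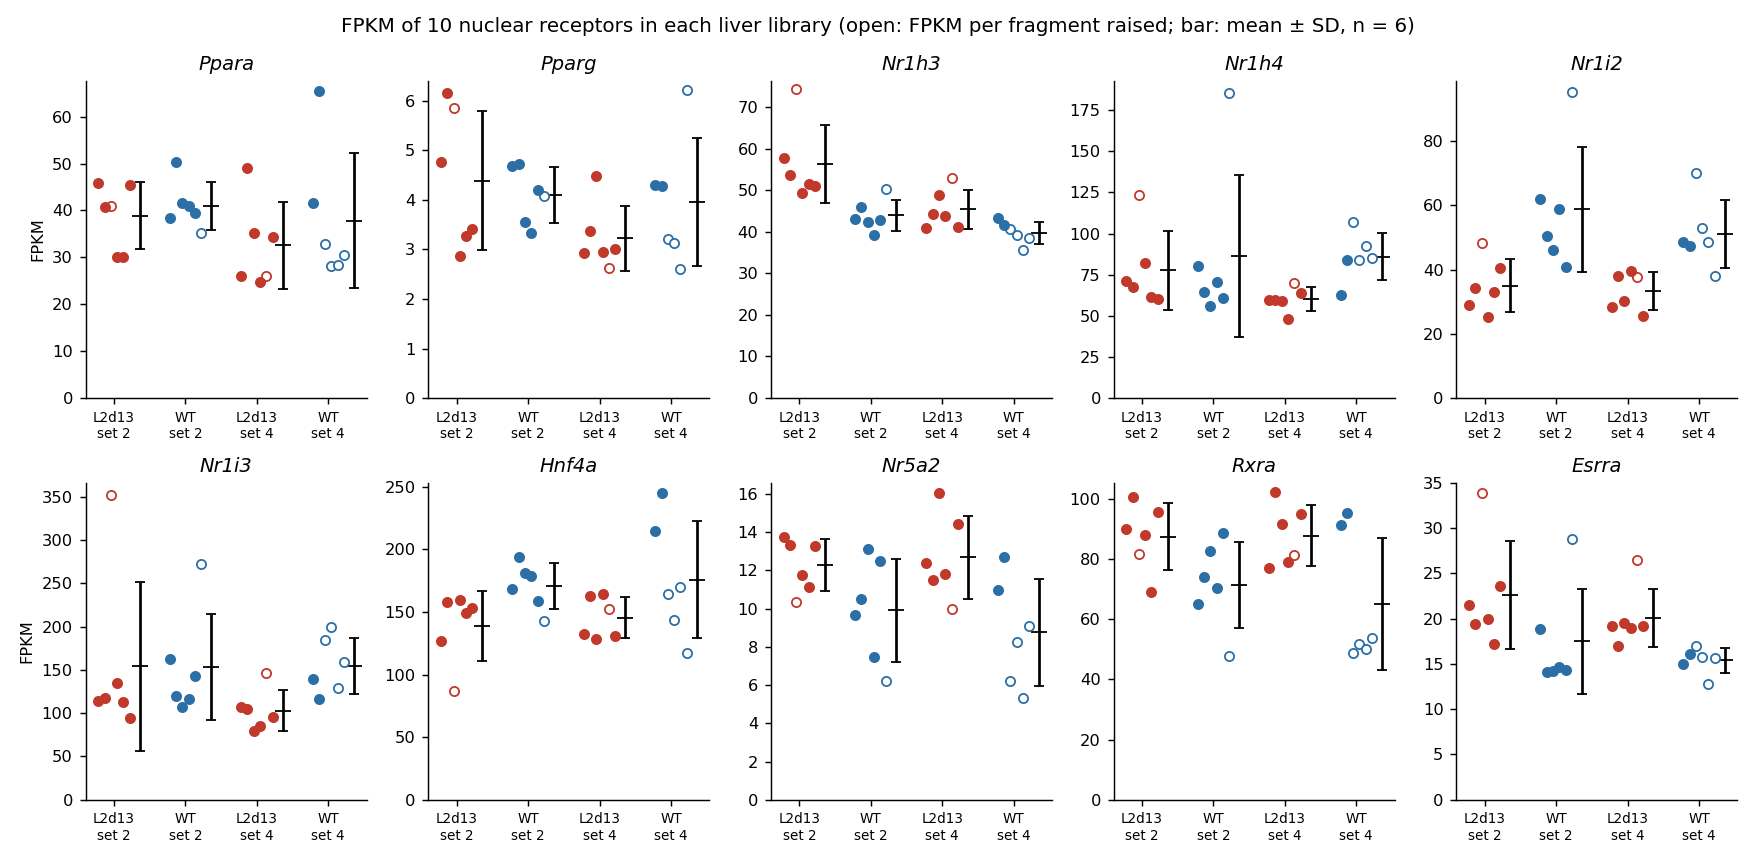
FPKM of the 10 receptors in each of the 24 libraries (points, linear scale, open where 1 fragment was worth more FPKM), by genotype and set, with the mean and SD of each group of 6. The means of the L2d13 groups sit below WT for Nr1i2 and above WT for Nr1h3, Nr5a2, Rxra and Esrra, and single libraries far above their group are seen for Nr1i3 and Nr1h4.

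Over both sets, 5 of the 10 receptors passed the test, limma on log2(FPKM + 1) with the set as a term and an adjusted p under 0.05 after Benjamini-Hochberg adjustment over all 10532 genes tested. Nr1i2 fell, and Nr1h3, Nr5a2, Rxra and Esrra rose. Of all genes tested, 30.8% were called (25.9% higher and 4.86% lower), so that 5 of 10 is to be read against a wide background. Within the sets 2 of 10 were called each time: Nr1i2 lower and Nr1h3 higher in set 2, where 15.1% of all genes were called (13% higher and 2.13% lower), and Nr1i2 lower and Nr5a2 higher in set 4, where 13.3% were called (10.3% higher and 2.97% lower). The median log2 difference was -0.11 over the 10 receptors and 0.12 over all genes. That shift of all genes depends on the scaling: with median-of-ratios scaling it was 0.00, and 1128 genes were higher and 1162 lower in L2d13, against 2730 higher and 512 lower as deposited. Under that scaling the receptors' own balance turned, with 1 called higher (Esrra) and 4 called lower (Nr1i2, Nr1h4, Nr1i3 and Hnf4a). All log2 differences below are L2d13 minus WT on log2(FPKM + 1), which understates the change of low genes, and in whole liver fewer cells of a type and less RNA per cell cannot be told apart.

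Nr1i2 encodes the pregnane X receptor, which senses steroids and drugs and turns on genes of detoxification (Entrez 18171; GRCm38 chromosome 16, 38248323 to 38294824, minus strand). In set 2 its lowest, median and highest FPKM were 25.15, 33.7 and 48.3 in L2d13 livers, against 40.7, 54.6 and 95.2 in WT livers. In set 4 they were 25.7, 33.95 and 39.5 in L2d13 livers, against 38.05, 48.7 and 70.1 in WT livers. The ranges overlapped in both sets, but 8 of 12 L2d13 libraries lay below the lowest WT library and 8 of 12 WT libraries above the highest L2d13 library. The log2 difference was -0.65 ± 0.13 (SE), 0.636-fold, with an adjusted p of 0.000464, and all 12 L2d13 libraries were below the WT mean of their set. It was -0.71 in set 2 (adjusted p = 0.0111) and -0.60 in set 4 (adjusted p = 0.0311). Of the 10 receptors this was the one that was called in each set on its own. Over both sets it stayed called in each of the 24 fits that left out 1 library and in every other alternative tried. Within set 4 the call was lost when L2d13 replicate 7, 9 or 12 or WT replicate 9, 10 or 11 of that set was left out (adjusted p up to 0.0899), with no filter on low values (adjusted p = 0.0517), in the 17 libraries of the lower class (-0.58, adjusted p = 0.0844) and when the library class was added to the fit (-0.40, adjusted p = 0.143).

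Nr1i3, its close relative, is the receptor through which phenobarbital-like compounds induce drug metabolism. It had a lowest, median and highest FPKM of 79.7, 110 and 352 in the 12 L2d13 livers, against 107, 141 and 272 in the 12 WT livers. The spread was wide, and 1 library of each genotype lay far above the rest, L2d13 replicate 3 and WT replicate 6 of set 2. The log2 difference of -0.33 ± 0.18 (SE) did not pass (adjusted p = 0.174), although 11 of 12 L2d13 libraries were below the WT mean of their set. Without the L2d13 library it was -0.47 (adjusted p = 0.010), without the WT library -0.26 (adjusted p = 0.280) and without both -0.40 (adjusted p = 0.0113). With median-of-ratios scaling it passed (-0.47, adjusted p = 0.0275), and with the library class as a term it was -0.11 (adjusted p = 0.466). Within set 2 the difference was -0.08 (adjusted p = 0.872) and within set 4 -0.58 (adjusted p = 0.125). Set 4 passed with median-of-ratios scaling (adjusted p = 0.0396), without the L2d13 library (0.0363) and without both libraries (0.00797). In set 4 it did not pass in the 17 libraries of the lower class (-0.44, adjusted p = 0.123) or with the class as a term (-0.16, adjusted p = 0.622). Nr1i3 shares exon sequence with Tomm40l on the opposite strand (mean FPKM 53.1). The strand of counting is not given in the sources used here, so reads from the shared stretch, whose length was not measured, cannot be told apart.

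Of 27 tested genes known to respond to Nr1i3 or Nr1i2 (31 listed), 11 fell, 2 rose and 14 did not pass over both sets, with a median log2 difference of -0.39 against 0.12 for all genes. Thus 48.1% were called, against 30.8% of all genes (25.9% higher and 4.86% lower). In set 2, 11 fell and 1 rose, with a median of -0.47, and in set 4, 4 fell and 1 rose, with a median of -0.05. The glutathione transferases Gstm3 (log2 -1.66 ± 0.19, SE), Gstm1 (-0.98 ± 0.16) and Gsta2 (-0.87 ± 0.13) fell, each in 12 of 12 L2d13 libraries. Gstm1 stood at 761 ± 180 FPKM in L2d13 and 1580 ± 718 FPKM in WT livers (SD, n = 12 each). Por, the reductase that passes electrons to microsomal cytochromes P450, rose by 0.80 ± 0.12 on the log2 scale. The transferases and the Cyp2c genes of the list are families of similar copies, so that the share of each copy is uncertain. The prototype targets, named here after their values were seen, did not pass: Cyp2b10, the classic Nr1i3 target, had 40.3 ± 20.8 FPKM in L2d13 and 40.0 ± 20.1 in WT livers (adjusted p = 0.925), and Cyp3a11, the classic Nr1i2 target, 1423 ± 416 in L2d13 and 1743 ± 747 in WT livers (adjusted p = 0.144). With median-of-ratios scaling 13 genes of the list were called lower and 1 higher.

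Rxra, the partner of 6 of the other 9 receptors, was higher in L2d13 livers (Entrez 20181; chromosome 2, 27676440 to 27762957, plus strand). In set 2 its lowest, median and highest FPKM were 68.95, 88.9 and 101 in L2d13 livers, against 47.9, 72.15 and 88.5 in WT livers. In set 4 they were 76.95, 86.6 and 102 in L2d13 livers, against 48.7, 52.6 and 95.2 in WT livers. The ranges overlapped in both sets, with 3 L2d13 libraries above the highest WT library and 6 WT libraries below the lowest L2d13 library. Over both sets the log2 difference was 0.39 ± 0.12 (SE), 1.31-fold, with an adjusted p of 0.0134, and neither set passed on its own (0.31 with adjusted p = 0.223 in set 2, 0.48 with adjusted p = 0.0578 in set 4).

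The Rxra difference moved with the class of library. The 5 WT libraries in which a fragment was worth more FPKM had 47.9 to 53.6 FPKM of Rxra, and the other 7 WT libraries had 65.0 to 95.2, with no overlap. Among L2d13 libraries the 2 of that class had 81.4 and 81.5 FPKM, within the 68.95 to 102 of the other 10. In the 17 libraries of the lower class alone the log2 difference was 0.11 (adjusted p = 0.437), and in set 4, where only 2 WT libraries then remained, -0.07. With the class as a term in the fit over all 24 libraries it was 0.27 (adjusted p = 0.0209). The part of the class in the result was not tested beyond these values.

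**Figure D2:**
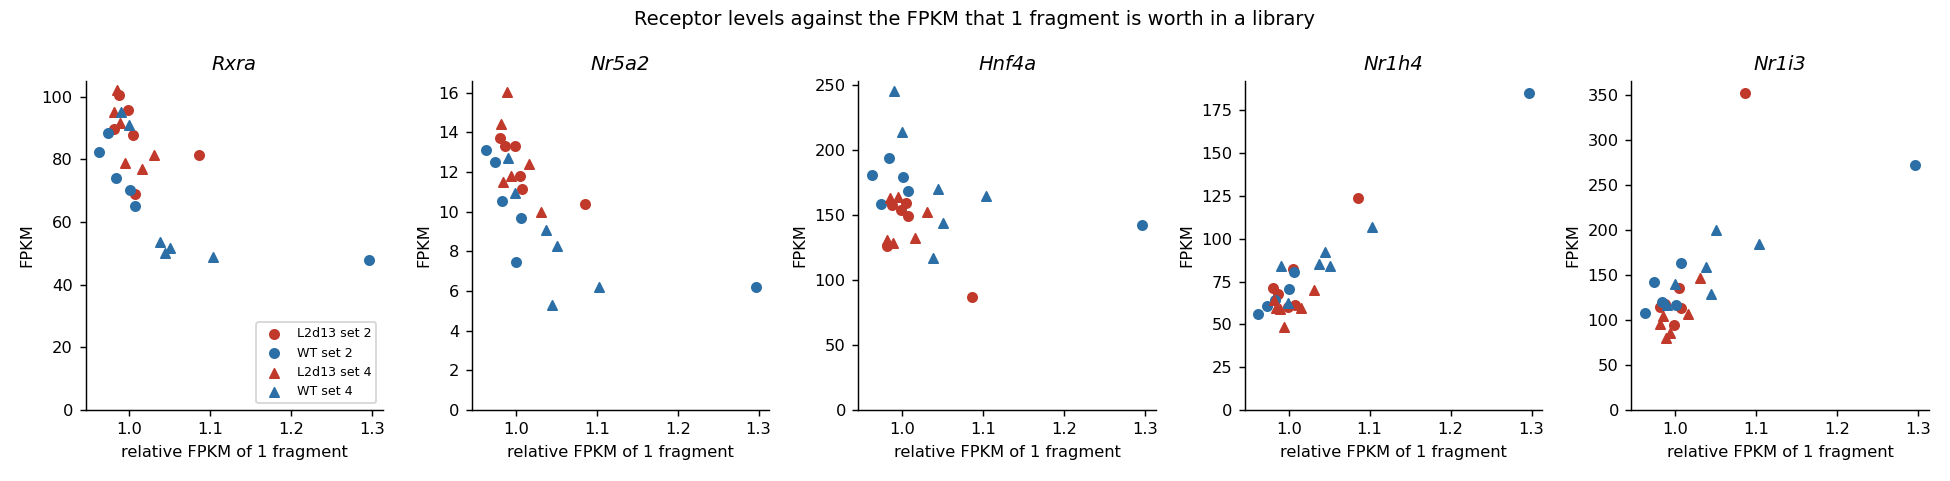
FPKM of Rxra, Nr5a2, Hnf4a, Nr1h4 and Nr1i3 (vertical axes) against the relative FPKM worth of 1 fragment (horizontal axes) in the 24 libraries, by genotype (colour) and set (symbol). For Rxra the 5 raised WT libraries, at 47.9 to 53.6 FPKM, lie under all other libraries, and the library farthest to the right, WT replicate 6 of set 2, has 185 FPKM of Nr1h4, the most of all libraries, and 272 FPKM of Nr1i3.

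Ratios of receptors within a library do not depend on how that library was scaled, and they were taken for the 6 receptors that pair with Rxra, as a description with no test. Nr1i2 had 0.370 times the FPKM of Rxra in the median L2d13 library, against 0.773 times in the median WT library. The log2 of that ratio was 1.03 lower in L2d13 than in WT livers of set 2 and 1.10 lower in set 4, and all 12 L2d13 libraries were below the WT mean of their set. The Ppara to Rxra ratio was 0.394 in the median L2d13 library and 0.576 in the median WT library, again with 12 of 12 L2d13 libraries below the WT mean. Averaged over the sets, the log2 difference was -0.54 for Ppara, -0.73 for Nr1i3, -0.68 for Nr1h4, -0.50 for Pparg and -0.13 for Nr1h3. Rxra, the shared denominator, was itself higher in L2d13 livers. For Nr1h3 the ratios were close, at 0.545 in L2d13 and 0.643 in WT. In the 17 libraries of the lower class the log2 differences of these ratios were -0.79 for Nr1i2, -0.48 for Ppara and -0.44 for Nr1i3. They were -0.33 for Pparg, -0.25 for Nr1h4 and 0.04 for Nr1h3. The balance between Nr1i2 and Rxra thus differed in the same direction there.

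**Figure D3:**
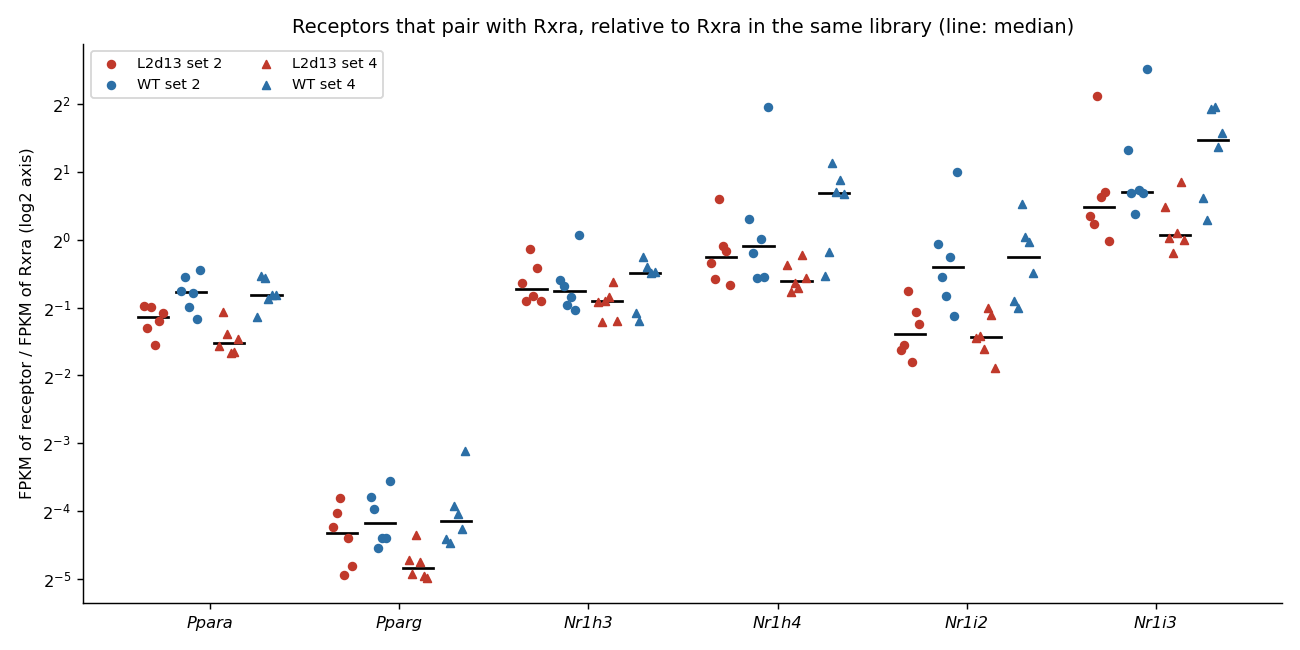
Ratio of the FPKM of each of the 6 pairing receptors to that of Rxra in the same library (log2 axis), by genotype and set, with the median of each group as a line. The median ratio over all libraries of a genotype is lower in L2d13 for all 6. The genotypes overlap in part for Nr1i2 (highest in L2d13 0.592, lowest in WT 0.460) and Ppara (0.5105 and 0.447), and over most of their range for Nr1h3.

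Nr1h3, the oxysterol sensor that turns on cholesterol export and fat synthesis, rose in L2d13 livers (Entrez 22259; chromosome 2, 91184061 to 91202834, minus strand). In set 2 its lowest, median and highest FPKM were 49.4, 52.6 and 74.35 in L2d13 livers, against 39.3, 43.05 and 50.3 in WT livers. In set 4 they were 40.9, 44.1 and 53.0 in L2d13 livers, against 35.6, 39.9 and 43.2 in WT livers. The ranges overlapped only at their edges: all 12 L2d13 libraries exceeded the WT mean of their set, and 6 exceeded the highest of the 12 WT libraries. The log2 difference was 0.26 ± 0.07 (SE), 1.20-fold, with an adjusted p of 0.00663, the smallest relative change among the 5 called receptors. Set 2 passed on its own (0.34, adjusted p = 0.0223) and set 4 did not (0.18, adjusted p = 0.219), and the call in set 2 was lost without WT replicate 4 of set 2 (adjusted p = 0.0602), with median-of-ratios scaling (0.15, adjusted p = 0.208), with quantile normalization (0.22, adjusted p = 0.067) and with the replicate block (adjusted p = 0.0879).

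Relative to the median of all genes the rise of Nr1h3 was 0.14 on the log2 scale, and with median-of-ratios scaling it was 0.12 (adjusted p = 0.0687). Exons of Nr1h3 overlap those of Gm13783, a processed transcript on the same strand without a deposited value. Nr1h3 is also expressed by Kupffer cells, the macrophages of the liver. As deposited, 3 of their 11 markers were higher in L2d13 livers (Clec4f, Vsig4 and Csf1r). These 27.3% are near the 25.9% of all genes called higher. With median-of-ratios scaling, with quantile normalization and in the 17 libraries of the lower class 0 of 11 were called. The summed FPKM of the 11 was 169 to 385 in L2d13 and 137 to 266 in WT livers of set 2, and 78.2 to 278 in L2d13 and 50.45 to 181 in WT livers of set 4, with none of them at 0. Their part in the Nr1h3 result was not tested. Of 16 tested genes of liver X receptor action (17 listed), 6 rose, Nr1h3 itself among them, and 4 fell, with a median log2 difference of -0.05. Calls made up 62.5% of this list, against 30.8% of all genes (25.9% higher and 4.86% lower). The desaturase Scd1 fell by 1.17 ± 0.27 on the log2 scale, to 161 ± 82.5 FPKM in L2d13, against 364 ± 223 in WT livers, and Srebf1, which encodes the main activator of fatty acid synthesis genes, fell by 0.60 ± 0.17. Smpdl3a, a phosphodiesterase, rose by 0.71 ± 0.21, and was not called with median-of-ratios scaling (0.58), quantile normalization (0.60) or in the 17 libraries (0.37). Under median-of-ratios scaling 5 of these genes were called lower and 0 higher, and in the 17 libraries of the lower class 4 fell and 2 rose.

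Nr1h4, the bile acid receptor that holds bile acid synthesis in check, had a lowest, median and highest FPKM of 48.2, 62.7 and 124 in the 12 L2d13 livers, against 55.9, 82.2 and 185 in the 12 WT livers. The same 2 libraries as for Nr1i3 were highest, and the ranges overlapped broadly. The log2 difference of -0.28 ± 0.16 (SE) did not pass (adjusted p = 0.180), with 11 of 12 L2d13 libraries below the WT mean of their set. It was -0.06 in set 2 and -0.50 in set 4, and in set 4 it passed once WT replicate 6 of set 2, which stood apart and enters the shared estimate of spread, was left out (adjusted p = 0.0252), and with median-of-ratios scaling (-0.59, adjusted p = 0.0411). Over both sets it passed with median-of-ratios scaling (-0.42, adjusted p = 0.0258), and it was -0.09 in the 17 libraries of the lower class (adjusted p = 0.573) and -0.11 with the class as a term (adjusted p = 0.472). In set 4 the class as a term gave -0.16 (adjusted p = 0.582).

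Of 14 tested genes of Nr1h4 action (16 listed), 5 rose, 2 fell and 7 did not pass, with a median of 0.13. Nr0b2, the receptor without a DNA-binding domain that Nr1h4 induces and that represses bile acid synthesis, fell by 0.92 ± 0.26 on the log2 scale, to 18.8 ± 12.9 FPKM in L2d13, against 33.9 ± 13.6 in WT livers. Abcb11, the bile salt export pump, fell by 0.39 ± 0.11. Cyp8b1, the sterol hydroxylase that sets the share of cholic acid, rose by 0.80 ± 0.10, to 680 ± 104 FPKM in L2d13, against 391 ± 68.3 in WT livers, and the phospholipid transporter Abcb4 rose by 0.43 ± 0.11. Under median-of-ratios scaling 2 of the 14 were called higher and 3 lower, and in the 17 libraries of the lower class neither Nr0b2 (-0.71) nor Abcb4 (0.24) was called.

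Ppara, the fatty acid sensor that turns on fat burning in fasting, did not pass. Its lowest, median and highest FPKM were 24.8, 34.8 and 49.1 in L2d13 livers, against 28.1, 39.0 and 65.5 in WT livers. The ranges overlapped over most of their width. The log2 difference was -0.14 ± 0.13 (SE, adjusted p = 0.452), with 8 of 12 L2d13 libraries below the WT mean of their set.

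Of 34 tested Ppara targets, 21 rose, 2 fell and 11 did not pass, with a median log2 difference of 0.36. That is 67.6% called, against 30.8% of all genes (25.9% higher and 4.86% lower). The omega-hydroxylase Cyp4a10 rose by 1.07 ± 0.14 on the log2 scale, to 2031 ± 489.3 FPKM in L2d13, against 984 ± 308 in WT livers, and has close copies that share sequence with it. Cpt1a, which lets fatty acids into mitochondria, rose by 0.94 ± 0.13 and was higher in 12 of 12 L2d13 libraries. The peroxisomal thiolase Acaa1a rose by 0.54 ± 0.10 and the mitochondrial reductase Decr1 by 0.57 ± 0.12. The pair that fell, Angptl4 (-0.47 ± 0.13), an inhibitor of lipoprotein lipase, and Pdk4 (-0.99 ± 0.32), a kinase that slows pyruvate use, was named after its values were seen. Fgf21, a hormone often used as a readout of Ppara and likewise named after its values were seen, had a log2 difference of -0.09 and did not pass. The excess of higher over lower calls held under other scalings with fewer genes: 11 were higher and 2 lower by median-of-ratios scaling, 17 and 2 by quantile normalization, and 12 and 2 in the 17 libraries of the lower class. All genes also had more higher than lower calls as deposited (2730 and 512) and in the 17 libraries (1535 and 557). Their split was nearer even by median-of-ratios scaling (1128 and 1162) and by quantile normalization (1310 and 1079). Within the sets 8 of 34 rose and 0 fell in set 2, and 13 rose and 1 fell in set 4, where 0 were called in the 17 libraries.

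Pparg, the receptor that drives fat storage in adipocytes and is low in normal liver, had a lowest, median and highest FPKM of 2.63, 3.33 and 6.17 in L2d13 livers, against 2.61, 4.15 and 6.22 in WT livers. The ranges were almost the same. The log2 difference was -0.08 ± 0.12 (SE, adjusted p = 0.640), and its sign in set 2 turned with the scaling. Of 12 tested genes of Pparg action (16 listed), 3 rose and 2 fell. That is 41.7% called, against 30.8% of all genes (25.9% higher and 4.86% lower). The lipid droplet protein Cidec rose by 2.33 ± 0.26 on the log2 scale, to 41.3 ± 21.5 FPKM in L2d13, against 6.89 ± 3.04 in WT livers, in 12 of 12 L2d13 libraries. Plin4, another coat protein of lipid droplets, fell by 1.73 ± 0.34. The fat storage-inducing proteins diverged, with Fitm1 down by 0.89 ± 0.22 and Fitm2 up by 0.89 ± 0.26, although Fitm2 was not called in the 17 libraries of the lower class (0.40, adjusted p = 0.180).

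Hnf4a and Nr5a2 went different ways. Hnf4a had a lowest, median and highest FPKM of 87.2, 151 and 164 in L2d13 livers, against 117, 169 and 245 in WT livers. All 12 L2d13 libraries were below the WT mean of their set, and 8 WT libraries exceeded the highest L2d13 library. The log2 difference of -0.28 ± 0.11 (SE) missed the threshold (adjusted p = 0.0559), and it passed under median-of-ratios scaling (-0.42, adjusted p = 0.0293), in the 17 libraries of the lower class (-0.40, adjusted p = 0.00494), with the class as a term (-0.38, adjusted p = 0.00224) and when WT replicate 6 of set 2, or replicate 10 or 12 of set 4, was left out. Of its 25 tested targets 6 rose and 4 fell, with a median of 0.01. The share called was 40.0%, against 30.8% of all genes (25.9% higher and 4.86% lower). Apoa4, an apolipoprotein of fat transport, rose by 2.79 ± 0.31 and the liver glycogen synthase Gys2 by 0.88 ± 0.15, while the thyroxine carrier Ttr fell by 0.69 ± 0.12. Under median-of-ratios scaling 4 of the 25 were called higher and 7 lower.

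Nr5a2 rose in L2d13 livers (Entrez 26424; chromosome 1, 136842571 to 136960448, minus strand). In set 2 its lowest, median and highest FPKM were 10.4, 12.5 and 13.7 in L2d13 livers, against 6.21, 10.1 and 13.1 in WT livers. In set 4 they were 9.99, 12.1 and 16.05 in L2d13 livers, against 5.30, 8.67 and 12.7 in WT livers. The ranges overlapped, with 7 WT libraries below the lowest L2d13 library. The log2 difference was 0.42 ± 0.12 (SE), 1.34-fold, with an adjusted p of 0.0119, and all 12 L2d13 libraries exceeded the WT mean of their set. It was 0.53 in set 4 (adjusted p = 0.0479) and 0.32 in set 2 (adjusted p = 0.229), and the call in set 4 held in 8 of the 24 fits that left out 1 library. As with Rxra, the 5 raised WT libraries were low, at 5.30 to 9.07 FPKM against 7.48 to 13.1 in the other 7, and in the 17 libraries of the lower class the log2 difference was 0.21 (adjusted p = 0.147). The call was also lost with median-of-ratios scaling (0.29, adjusted p = 0.108) and quantile normalization (0.31, adjusted p = 0.0836).

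Of 13 tested genes of Nr5a2 action (14 listed), 5 rose and 4 fell, with a median of 0.01. Calls made up 69.2% of this list, against 30.8% of all genes (25.9% higher and 4.86% lower). The steroid hydroxylase Cyp17a1 rose by 2.07 ± 0.25 on the log2 scale, to 33.4 ± 19.1 FPKM in L2d13, against 7.17 ± 5.03 in WT livers. The fatty acid elongase Elovl5 rose by 0.84 ± 0.15, and Cyp8b1, given above, is also on this list and on that of Hnf4a.

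Esrra rose in L2d13 livers (Entrez 26379; chromosome 19, 6910977 to 6921813, minus strand). In set 2 its lowest, median and highest FPKM were 17.2, 20.7 and 33.9 in L2d13 livers, against 14.15, 14.5 and 28.7 in WT livers. In set 4 they were 16.99, 19.2 and 26.4 in L2d13 livers, against 12.8, 15.7 and 16.9 in WT livers. The ranges did not overlap in set 4, by a narrow margin (16.99 against 16.92 FPKM). The share of all genes whose ranges part there was not counted, so nothing is read from it. In set 2 they overlapped, with WT replicates 1 and 6 above the lowest L2d13 library. The log2 difference was 0.36 ± 0.11 (SE), 1.28-fold, with an adjusted p of 0.0147, and 11 of 12 L2d13 libraries exceeded the WT mean of their set. Neither set passed alone (0.37 with adjusted p = 0.117 in set 2, 0.36 with adjusted p = 0.136 in set 4), and without WT replicate 6 of set 2 the difference in set 2 was 0.52 (adjusted p = 0.0131). Both sets passed with the class as a term (adjusted p = 0.0295 and 0.00815) and without the 2 libraries that stood apart (0.0207 and 0.0154). In the 17 libraries of the lower class set 2 passed (adjusted p = 0.00683) and set 4 did not (0.221). Neither passed with median-of-ratios scaling, quantile normalization, no filter, a pseudocount of 0.1 or the replicate block. Over both sets the call held under every alternative, at 0.23 with median-of-ratios scaling (adjusted p = 0.0439) and 0.35 in the 17 libraries of the lower class (adjusted p = 0.00353). Esrra shares exon sequence with Trmt112 on the opposite strand (mean FPKM 40.3), so reads from the shared stretch, whose length was not measured, cannot be told apart.

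Of 19 tested Esrra targets (20 listed), 9 rose, Pdk4 fell and 9 did not pass, with a median of 0.29. Thus 52.6% were called, against 30.8% of all genes (25.9% higher and 4.86% lower). The citric acid cycle enzymes Idh3a (0.66 ± 0.09 on the log2 scale) and Mdh2 (0.33 ± 0.07) rose, as did Mfn2, which fuses mitochondria (0.58 ± 0.10). Idh3a had 17.5 ± 1.83 FPKM in L2d13 and 10.9 ± 2.34 in WT livers, higher in 12 of 12 L2d13 libraries. Under median-of-ratios scaling 3 of the 19 were called higher and 1 lower, Mdh2 no longer among them (0.19), and in the 17 libraries of the lower class 8 rose and 1 fell.

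**Figure D4:**
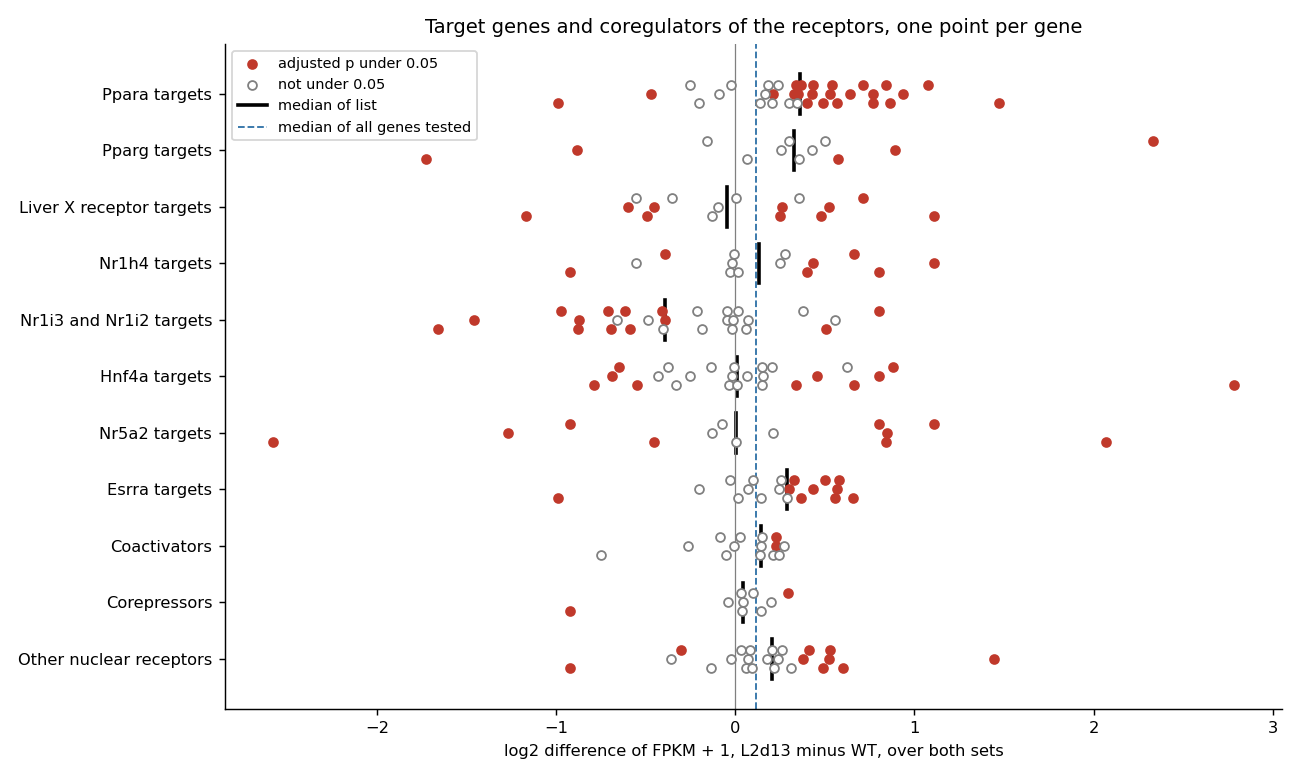
Log2 difference (L2d13 minus WT, over both sets) of the tested genes on each list of targets, coregulators and other receptors (points, filled where the adjusted p was under 0.05). Thick lines give the median of each list and the dashed line that of all genes tested. The Ppara list (median 0.36) and the Esrra list (0.29) lie above the median of all genes (0.12), and the Nr1i3 and Nr1i2 list (-0.39) lies below it.

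Of the other nuclear receptors, 23 of 38 listed were tested, and 7 rose and 2 fell, with a median of 0.20. Thus 39.1% of the 23 were called, against 30.8% of all genes (25.9% higher and 4.86% lower). The orphan receptor Nr2f2 rose by 0.60 ± 0.13 on the log2 scale, to 8.24 ± 1.96 FPKM in L2d13, against 5.16 ± 1.51 in WT livers. The retinoic acid receptor Rarb (0.49 ± 0.11), the oestrogen receptor Esr1 (0.52 ± 0.13) and Rxrg, a relative of Rxra (0.38 ± 0.10), were also higher. Nr0b2, given above, and Rora (-0.30 ± 0.09) fell. Nr2f2 is expressed in vessels as well, and 5 of 8 endothelial markers were higher in L2d13 livers (Lyve1, Oit3, Pecam1, Kdr and Clec4g). Among all genes 25.9% were called higher, against 62.5% of these markers. Their summed FPKM was 112 to 240 in L2d13 and 44.0 to 125 in WT livers of set 2, and 44.9 to 101 in L2d13 and 31.6 to 105 in WT livers of set 4, with none at 0, and their part in these results was not tested.

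Coregulators are proteins that receptors recruit to DNA. Over both sets 14.3% of the coactivators and 22.2% of the corepressors were called, against 30.8% of all genes. Of 14 coactivators 2 rose, the Mediator subunit Med1 (0.23 ± 0.07) and Ncoa6 (0.23 ± 0.08). Of 9 corepressors Tbl1xr1, a subunit of the corepressor complex, rose by 0.29 ± 0.07 on the log2 scale, and Nr0b2 fell as given above. Med1, Ncoa6 and Tbl1xr1 lost their calls with median-of-ratios scaling and with quantile normalization, under each of which 2 other coactivators were called lower.

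The choice of scaling and of libraries split the receptors into those that held and those that did not. Nr1i2 and Esrra were called under every setting in the plot of differences by setting. Nr1h3 was lost with median-of-ratios scaling alone, Nr5a2 and Rxra with both scalings and in the 17 libraries of the lower class. With the 2 libraries that stood apart left out, a setting chosen after seeing the data, 6 of 10 were called over both sets, the 5 named and Nr1i3. Calls were also more frequent among all genes there, with 3725 of 10532 called, against 3242 as deposited.

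**Figure D5:**
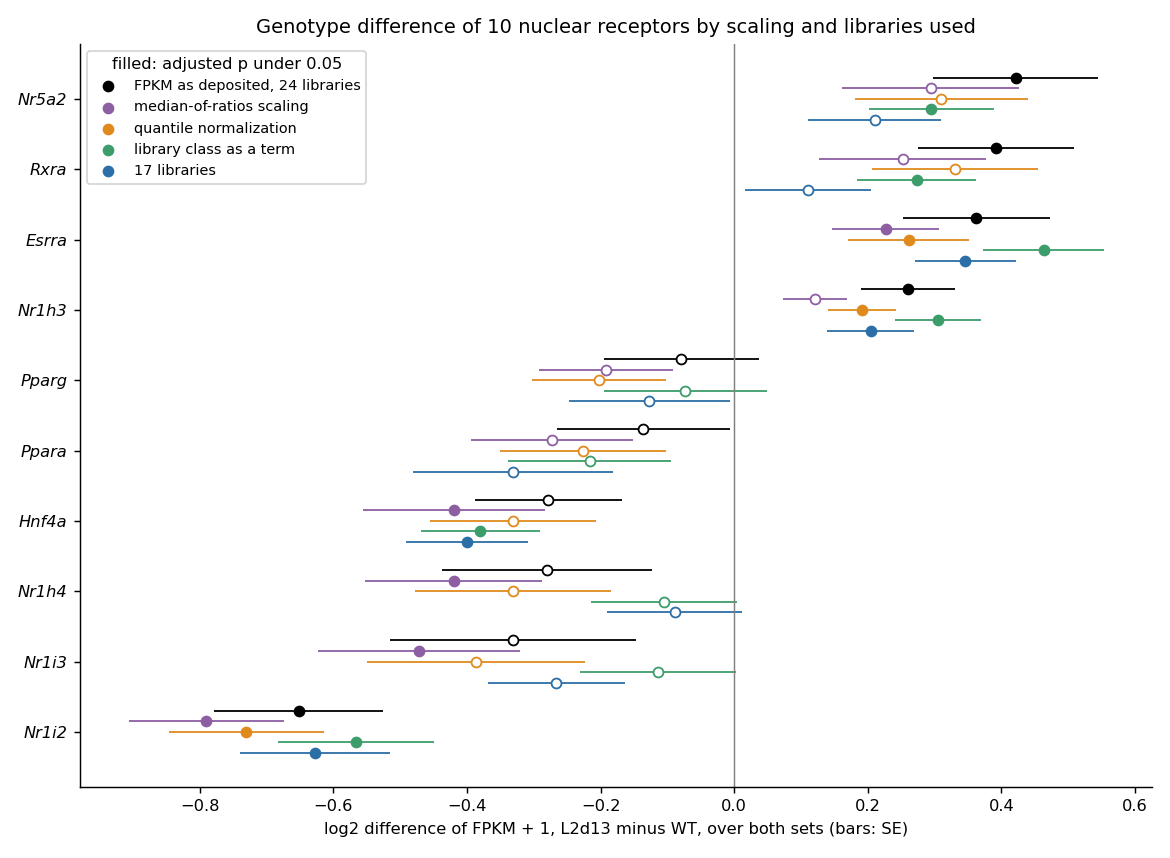
Log2 difference (L2d13 minus WT, over both sets) with its SE for each receptor under the deposited scaling, median-of-ratios scaling, quantile normalization, with the library class as a term and in the 17 libraries of the lower class (filled where the adjusted p was under 0.05). Nr1i2 lies between -0.79 and -0.57 under all of these, and Rxra lies between 0.11 and 0.39.

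For none of the receptors did the response to the genotype pass the test of a difference between the sets. The difference of the genotype effects, set 4 minus set 2, ran from -0.51 for Nr1i3 to 0.21 for Nr5a2, with adjusted p of 0.818 to 0.991 in limma and 0 of 10 at an unadjusted p under 0.05, and 0.152% of all genes were called (0.0285% higher and 0.123% lower). A call in 1 set and not in the other, as for Nr1h3 and Nr5a2, is therefore not shown to be a difference. Within the L2d13 livers 0 of 10 receptors were called between set 4 and set 2 by limma, with 1 at an unadjusted p under 0.05, Nr1h3 (log2 -0.30 ± 0.10, SE, adjusted p = 0.0689), and 6.06% of all genes were called (0.551% higher and 5.51% lower). Within the WT livers 0 of 10 were called, with 0 at an unadjusted p under 0.05, and 0.19% of all genes were called (0.0855% higher and 0.104% lower).

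The receptors also varied together within the groups, over the 24 libraries as deviations from their group means, which share the scaling of each library. Nr1i3 went with Nr1h4 (Pearson r = 0.807) and Esrra with Nr1h4 (0.816) and with Nr1i3 (0.806), a trio that was high in the libraries that stood apart. Rxra went with Nr5a2 (0.796) and with Ppara (0.747). Hnf4a ran opposite to Nr1i3 (-0.639), and Nr5a2 opposite to Nr1h4 (-0.624). These values are descriptions, and their dependence on single libraries and on the class of library was not tested.

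Of all tested genes, the ones most like each receptor over the 24 libraries on log2(FPKM + 1) had Pearson correlations of 0.751 to 0.960. Nr1i2 was followed most closely by Plin4 (Pearson r = 0.912, Spearman rho = 0.915, and r = 0.884 without the 2 libraries farthest from the median) and Cyp1a2 (r = 0.869, rho = 0.852, and r = 0.846). All of these correlations include the differences between the groups. As deviations from group means, Nr1i2 had r = 0.872 with Plin4 and r = 0.691 with Cyp1a2. Plin4 is one of the genes given above as lower in L2d13 livers. Rxra was followed by Heatr3 (r = 0.960) and the translation factor scaffold Eif4g1 (r = 0.957), and Nr5a2 by Tex261 (r = 0.940) and Ngly1 (r = 0.939). Nr1h3 went with P3h1 (r = 0.938) and Ciao3 (r = 0.932), Nr1i3 with Dock6 (r = 0.937) and Tmc4 (r = 0.929), Nr1h4 with Hps5 (r = 0.926) and Bicd2 (r = 0.920), and Esrra with Fastk (r = 0.914) and Cep131 (r = 0.908). The least distinct neighbours were those of Hnf4a (Baiap2l1, r = 0.832, and Trmt10c, r = 0.783), Ppara (Arhgef3, r = 0.827, and Ptprk, r = 0.826) and Pparg (Vac14, r = 0.753, and Rps6ka1, r = 0.751). Without the 2 libraries farthest from the median of Hnf4a, r was 0.787 for Baiap2l1 and 0.599 for Trmt10c.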

How the data were processed

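Liver RNA of 24 libraries was sequenced on the BGISEQ-500 platform, per the labels' protocols. The authors deposited FPKM values for 18171 genes with 2 decimals. The tools HISAT, Bowtie2 and RSEM and the build GRCm38.p5 are listed, with neither version nor role, per the submitters' processing notes. FPKM carries no read totals, so depth is unknown and no counting interval is given. Columns were matched to samples by the sample descriptions (columns of no sample: 0). The members and gene lists were chosen with earlier results of these data known.

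The filter asked for FPKM ≥ 1 in 6 or more libraries and passed 10532 genes, all 10 receptors among them. The values, as log2(FPKM + 1), went into limma 3.58.1 (R 4.3.3) with variances that follow the mean, two-sided, with Benjamini-Hochberg adjustment within each contrast. The genotype over both sets came from additive terms for set and genotype, and the other contrasts from 1 mean per group. A receptor was called at an adjusted p under 0.05, and a fold is the antilog of its log2 difference, pseudocount included. Of each list, up to 4 called genes with the smallest p are named, and of each receptor the 2 genes with the highest correlation, leaving out predicted genes and pseudogenes. Some genes that this rule names are not reported here.

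The FPKM worth of 1 fragment was estimated from the steps between low values of 463 genes. Among 5561 nonzero values 83.7% came within 0.2 steps of a whole number, and the boundary of 1.02 was set after seeing the values. Gene positions came from GENCODE M21 on GRCm38 and promoter windows from RefSeq on GRCm38.p6. Names came from the RefSeq table, which matched 18040 identifiers. The fit was tested on simulated data. Alternatives were median-of-ratios scaling, quantile normalization, a pseudocount of 0.1, no filter, the 17 libraries of the lower class (on the same 10532 genes), the class as a term, a replicate block, each library left out in turn, and, added after seeing the data, the 2 libraries that stood apart left out. Tables and plots were made with matplotlib 3.10.9, pandas 2.3.3, numpy 2.4.6 and scipy 1.17.1 under Python 3.11.15. Tf, Lep and Nr0b1, which were on the lists, were not analysed here.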

Additional observations from a re-analysis of the deposited data

Results flagged for a closer look

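In 8 of 40 groups of 6 libraries tested (10 receptors in 4 groups), the highest library stood apart from the others by more of the group's range than Dixon's critical value allows. For independent values with a normal distribution, chance gives this in about 1 of 20 groups. The receptors share the same 24 libraries and vary together, so the 40 groups are not independent and the 2 rates cannot be compared directly. L2d13 replicate 3 of set 2 was the highest of its group for Nr1i3 (351.56 FPKM), Nr1h4 (123.59) and Nr1h3 (74.35). WT replicate 6 of set 2 was the highest of its group for Nr1i3 (272.32), Nr1h4 (185.34) and Esrra (28.74). L2d13 replicate 11 of set 4 was the highest for Esrra (26.42), and WT replicate 8 of set 4 for Ppara (65.48). Of these 4 libraries the first 3 belong to the 7 in which 1 fragment was worth more FPKM, and the last does not. The 2 libraries of set 2 were also those that correlated least with the rest. In L2d13 replicate 3 of set 2, Alb was at 11018.51 FPKM, the lowest of all 24 libraries, and the summed FPKM of 6 bile duct markers reached 123, against 74.5 at most in the WT livers of set 2. What sets these libraries apart was not tested.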

How the results depend on the processing

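Over both sets, Nr1i2 and Esrra were called under every alternative and all 10 receptors kept their direction. The number of receptors called there was 5, and 3 with quantile normalization. In set 2 it was 2, and 1 each with median-of-ratios scaling, quantile normalization and the replicate block. In set 4 it was 2 (Nr1i2 and Nr5a2), and 1 with quantile normalization (Nr1i2) and in the 17 libraries (Hnf4a). It was 0 there with no filter and with the block, and 6 with the 2 libraries that stood apart left out. The receptors called in set 4 also changed with the class as a term (Hnf4a and Esrra) and with median-of-ratios scaling (Nr1i2, Nr1h4 and Nr1i3). Between sets in L2d13 the number called was 0, and 1 (Nr1h3) in the 17 libraries and with the class as a term. Of all genes, 3242 were called over both sets, and 2092 in the 17 libraries. In set 2, 1588 were called, 693 with median-of-ratios scaling, 827 with quantile normalization, 2509 with the class as a term and 807 with the block. In set 4, 1403 were called, 502 in the 17 libraries, 679 with the block and 2624 without the 2 libraries. For the difference of the sets the count was 16, and 6 with no filter, 63 in the 17 libraries and 9 with the block. Between sets it was 638 in L2d13, with 301 by median-of-ratios scaling, 345 by quantile normalization, 963 in the 17 libraries and 1231 with the class as a term, and 20 in WT, with 1 in the 17 libraries.

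Among the genotype comparisons, apart from fits that left out 1 library, the direction reversed for 3 receptors. Pparg in set 2 was 0.05, and -0.11 with median-of-ratios scaling, -0.11 with quantile normalization and -0.03 both in the 17 libraries and without the 2 libraries. Nr1h4 in set 2 was -0.06, and 0.045 in the 17 libraries and without the 2 libraries. Rxra in set 4 was 0.48, and -0.073 in the 17 libraries. Between the sets, where no receptor was called as deposited, signs turned more often. In the 17 libraries they turned for 3 of 10 receptors in the difference of the sets (Nr5a2 from 0.21 to -0.11, Rxra from 0.17 to -0.29, Hnf4a from 0.08 to -0.44), for 6 in WT and for 1 in L2d13, and with the class as a term for 4, 5 and 0. The causes were not tested.

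Leaving out each library in turn gave 2733 to 3846 genes and 5 to 6 receptors over both sets, 972 to 1824 and 1 to 3 in set 2, 833 to 2434 and 0 to 4 in set 4, 6 to 19 genes for the difference of the sets, 294 to 883 genes and 0 to 1 receptors between sets in L2d13 and 7 to 82 genes in WT. In set 2 the log2 difference then ran from -0.043 to 0.14 for Pparg, from -0.20 to 0.19 for Nr1h4 and from -0.35 to 0.10 for Nr1i3.

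The replicate numbers are shared by both genotypes, but same-numbered libraries did not deviate together (correlations of -0.604 to 0.26), so they were not taken as pairs. With the replicate block 2526 genes were called over both sets and the same 5 receptors, while Nr1h3 in set 2 (adjusted p = 0.0879) and Nr1i2 (0.0535) and Nr5a2 (0.0969) in set 4 were lost. No block could be fitted between the sets, which share no numbers, and no receptor fell below the filter, so the test planned for that case was not run. With FPKM alone, the depth behind each value is unknown.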
